A study of Mus musculus with 32 samples.

Results

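Fibrillar and basement membrane collagen genes were followed in YUMM3.3 cells, a mouse melanoma cell line, after Activin-A, IFN-γ or both. The members were 10 collagen chain genes given by name: Col1a1, Col1a2, Col3a1, Col5a1 and Col5a2 of the fibrillar collagens, Col4a1, Col4a2 and Col18a1 of the basement membrane, and Col6a1 and Col6a2 of the microfibrillar type VI collagen. All 10 were found by symbol among the 12451 genes counted, which held 25 collagen chains in all. Cells of this line were grown in 6-well plates, and 32 wells were sampled, 4 for each of 8 groups. The groups were untreated wells, wells with Activin-A (40 ng/ml), wells with IFN-γ (20 ng/ml) and wells with both at these doses, after 4 hrs and after 12 hrs. Their mRNA was measured by BRB-seq, a bulk method that tags the RNA of every well with its own barcode and reads the transcript's 3′ end. Per the study's methods the wells of a group were seeded as quadruplicates. Its statistics section refers to independent experiments in general, unless indicated, and does not assign these wells to days or passages. The p-values therefore measure the spread between wells.

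Collagens are built from 3 chains wound into a triple helix, which are products of a single gene in some types, such as type III, and of several in others, such as type IV. Fibrillar collagens give connective tissue its tensile strength, type IV collagen forms the network of basement membranes, and type VI collagen forms beaded filaments around cells. Activin-A is a TGF-β family ligand that signals through Smad2 and Smad3, a pathway known for raising matrix genes, and IFN-γ is a cytokine known for lowering collagen transcription in fibroblasts.

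Totals ranged from 654539 to 1455074 counts per well, so that a count of 3, used here as a detection limit, equals between 2.06 and 4.58 CPM (counts scaled to a common library size). This limit covers counting error only. Replicate 1 of Activin-A at 4 hrs stood apart from its group: its pairs had a chi-squared per gene of 2.45 to 2.89, and no other pair of wells of the same group was above 1.54. DEGs of that group named here are therefore given with and without it, or, where the call was lost without it, with that loss. As a check of the labels, all 5 known Activin-A target genes looked at were higher with Activin-A at 4 hrs, with or without that replicate, and 3 of 5 at 12 hrs, and all 3 IFN-γ target genes were higher with IFN-γ at both times. All 8 melanocyte lineage markers were in the table, with a summed level between 326 and 451 CPM in every well. None of the 4 endothelial and 4 epithelial markers was in the table, and the 2 of 4 leukocyte markers present summed to at most 15.3 CPM. Of 8 fibroblast markers 5 were in the table, with sums between 242 and 454 CPM in the wells, nearly all from Twist1 (308 CPM on average), while Pdgfra, Pdgfrb, Fap and Dcn averaged between 0.825 and 13.01 CPM.

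Levels below are CPM normalized by the TMM method, given as mean ± SD over 4 wells, and a log2 fold change (log2FC) is that of the quasi-likelihood test of edgeR, with p-values adjusted over all genes tested by Benjamini and Hochberg's method. A gene with an adjusted p under 0.05 is called a DEG. The test covered 8971 genes at 12 hrs and 9137 at 4 hrs. Col1a2, the second chain of type I collagen, was at 1.93 to 11.4 CPM in the wells, did not pass the filter on low counts at either time and was not tested, so that 9 of the 10 members were. Because 3′ ends were counted, levels are not compared between genes.

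**Figure D1:**
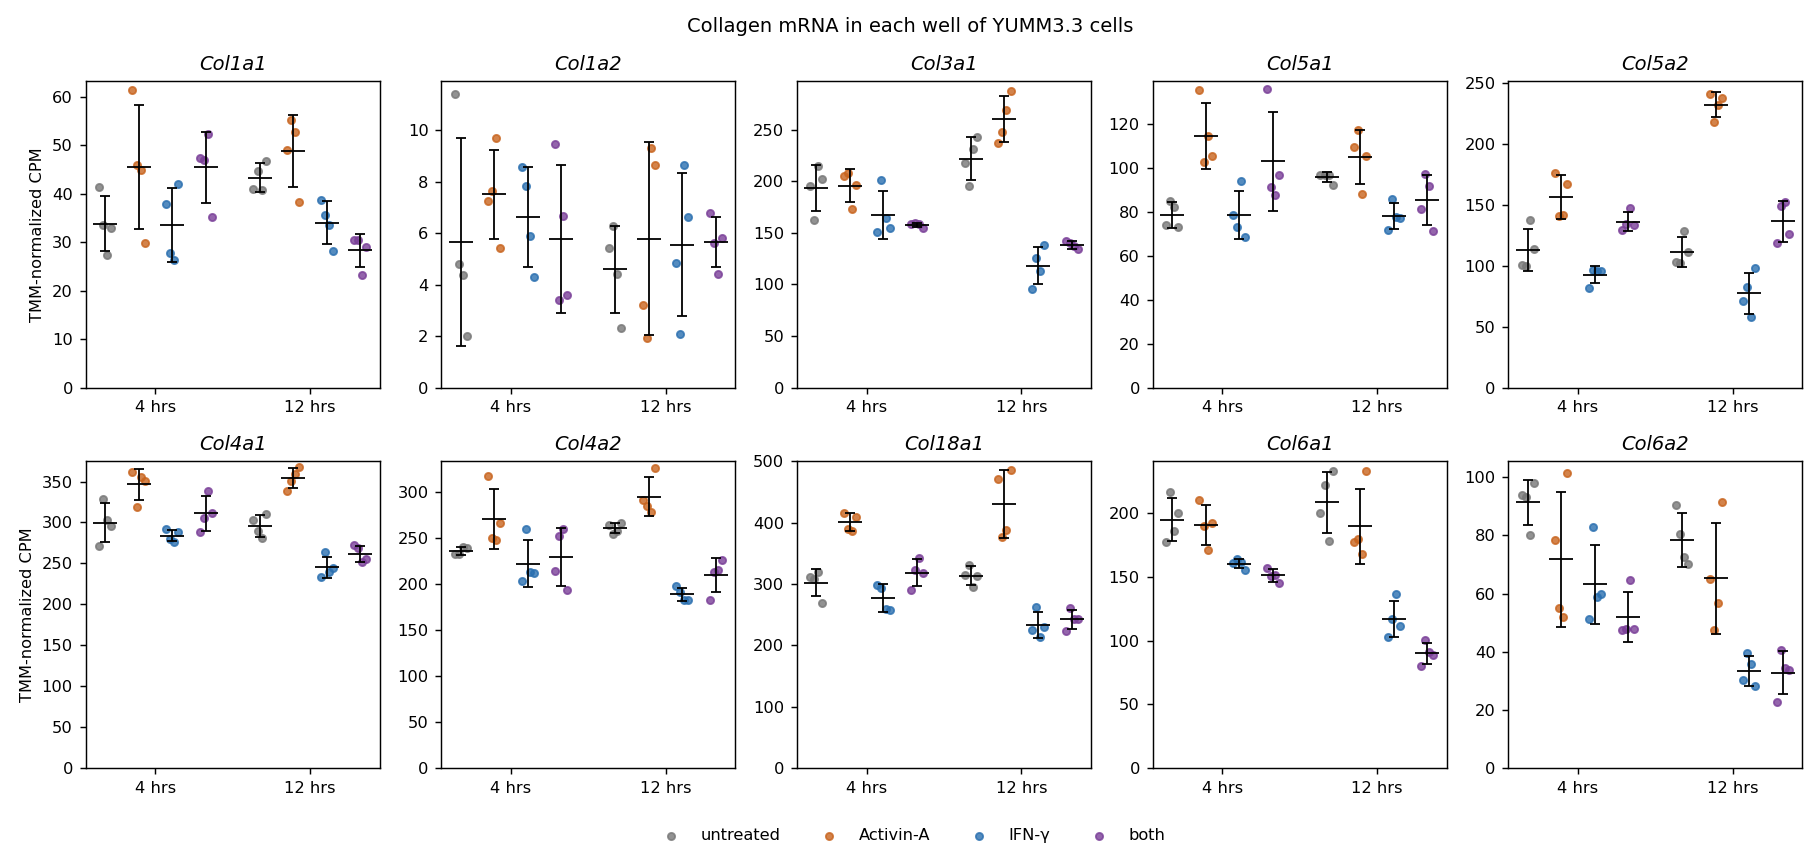
TMM-normalized CPM (y axis, from 0) of each of the 10 collagen genes in each of 32 wells, 4 hrs on the left and 12 hrs on the right of each panel. Points are wells, the horizontal bar is the mean and the error bar the SD of 4 wells. At 12 hrs the wells with IFN-γ lie below the untreated wells for 9 of the 10 genes, and Col5a2 with Activin-A lies at 218 to 241 CPM against 102 to 129 CPM untreated.

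After IFN-γ alone at 12 hrs, 7 of the 9 tested collagen genes were DEGs and all 7 were lower, where 2.82% of all genes tested were lower and 6.43% higher. In all 9, every well with IFN-γ was below every untreated well, a pattern found in 4.63% of all genes tested. The log2FC of the 9 ran from -1.25 to -0.27 with a median of -0.47, and the median over all genes tested was -0.0098. The sum over the 10 genes was 1634 ± 42.1 CPM (SD, n = 4) in untreated wells and 1130 ± 58.6 CPM with IFN-γ.

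Col6a1 and Col6a2, 2 of the chains of type VI collagen, had the lowest log2FC together with Col3a1. Col6a2 was at 90.5, 80.7, 72.7 and 70.1 CPM in the untreated wells and at 30.3, 39.7, 35.6 and 28.3 CPM with IFN-γ at 12 hrs. The highest well with IFN-γ was thus well below the lowest untreated well, and the log2FC was -1.25 (SE 0.16, adjusted p = 3.02e-10, edgeR). Col6a1 was at 200.2, 222, 178 and 233 CPM in untreated wells and at 103, 117, 136 and 111 CPM with IFN-γ. Its groups did not overlap either (log2FC -0.83, SE 0.10, adjusted p = 7.62e-12, edgeR).

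Col3a1, the single chain of type III collagen, which forms fibrils with type I collagen, was at 218, 195, 231 and 243 CPM untreated and at 95.8, 125, 113 and 138 CPM with IFN-γ. Every well with IFN-γ was lower (log2FC -0.88, SE 0.09, adjusted p = 6.69e-14, edgeR). Of the type V chains, which take part in starting fibril formation, Col5a2 was lower, at 77.6 ± 16.9 CPM against 111 ± 12.4 CPM (log2FC -0.48, SE 0.12, adjusted p = 0.00168, edgeR). Col5a1 was at 95.7 ± 2.21 and 78.1 ± 5.82 CPM and was not a DEG (log2FC -0.29, SE 0.12, adjusted p = 0.114, edgeR). Col1a1, the first chain of type I collagen, was at 43.3 ± 2.96 and 34.0 ± 4.42 CPM (log2FC -0.36, SE 0.17, adjusted p = 0.216, edgeR).

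All 3 basement membrane genes were DEGs. Col4a2 was at 261 ± 5.49 CPM untreated and 189 ± 7.29 CPM with IFN-γ (log2FC -0.47, SE 0.08, adjusted p = 1.10e-06, edgeR), and Col4a1 at 296 ± 13.1 and 245 ± 13.1 CPM (log2FC -0.27, SE 0.07, adjusted p = 0.00508, edgeR). Col18a1, whose C-terminal fragment is endostatin, was at 314 ± 14.97 CPM untreated and 233 ± 20.9 CPM with IFN-γ (log2FC -0.43, SE 0.08, adjusted p = 6.89e-06, edgeR). In bulk samples, fewer cells that express a gene and less of its RNA per cell cannot be told apart.

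Col4a1 and Col4a2 are a head-to-head pair, and their promoter windows are printed here because both genes fell together. In RefSeq's GRCm38.p6, 8 of the 10 genes, all but Col1a1 and Col5a2, had a promoter window of 300 bases, from 250 before to 50 after the start. The capitals mark the stretch of 78 bases that both windows share, on opposite strands. It holds both start sites, which lie 21 bases apart:
Col4a1 (chr8:11312777-11313076, minus strand): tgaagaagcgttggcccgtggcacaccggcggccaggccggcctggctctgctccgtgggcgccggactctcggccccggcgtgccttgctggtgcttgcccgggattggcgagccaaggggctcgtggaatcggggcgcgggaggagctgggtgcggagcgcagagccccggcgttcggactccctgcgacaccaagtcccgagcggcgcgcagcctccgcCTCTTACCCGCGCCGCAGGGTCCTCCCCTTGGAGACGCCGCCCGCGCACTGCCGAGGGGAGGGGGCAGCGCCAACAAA
Col4a2 (chr8:11312555-11312854, plus strand): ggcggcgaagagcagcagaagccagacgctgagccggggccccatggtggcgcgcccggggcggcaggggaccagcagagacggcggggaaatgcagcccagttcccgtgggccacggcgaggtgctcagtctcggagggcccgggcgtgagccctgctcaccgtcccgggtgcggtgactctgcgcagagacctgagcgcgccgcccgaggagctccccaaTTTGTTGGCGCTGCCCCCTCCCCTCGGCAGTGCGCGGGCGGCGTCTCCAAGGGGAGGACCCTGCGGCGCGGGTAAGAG
The windows of Col18a1, which rose with Activin-A, follow, 1 for each of its 2 start sites, with CAGAC or its reverse complement in capitals. The first holds it and the other does not, nor does that of Col4a1, which also rose:
Col18a1 (chr10:77113656-77113955, minus strand): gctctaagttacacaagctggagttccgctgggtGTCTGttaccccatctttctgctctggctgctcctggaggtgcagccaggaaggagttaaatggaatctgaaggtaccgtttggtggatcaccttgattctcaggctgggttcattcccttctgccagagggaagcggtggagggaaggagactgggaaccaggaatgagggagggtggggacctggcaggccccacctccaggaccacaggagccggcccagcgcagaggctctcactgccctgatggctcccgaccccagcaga
Col18a1 (chr10:77166481-77166780, minus strand): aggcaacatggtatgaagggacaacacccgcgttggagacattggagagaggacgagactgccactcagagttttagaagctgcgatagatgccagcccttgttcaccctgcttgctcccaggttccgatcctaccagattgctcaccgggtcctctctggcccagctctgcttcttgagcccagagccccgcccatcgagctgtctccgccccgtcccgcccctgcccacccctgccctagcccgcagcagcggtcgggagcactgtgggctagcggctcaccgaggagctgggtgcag

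The letters CAGAC, the Smad box, were in 6 of the 10 windows of these 8 genes on either strand, against 49.6% of all 32851 windows of that length. Besides Col18a1, windows of Col1a2, Col3a1, Col4a2, Col5a1 and Col6a2 held them. Of these, Col3a1, Col4a2 and Col6a2 were not DEGs with Activin-A alone at either time, and Col1a2 was not tested. The core of the interferon-stimulated response element was in 0 of 10 against 3.44%. GGGCGG was in 7 of 10 against 35.7%, and CCAAT in 4 of 10 against 37.4%. The windows are not all separate, since those of Col4a1 and Col4a2 overlap, as do those of Col6a2. The 1 GGGCGG match of the Col4a1 window lies in the 78 bases shared with Col4a2, so this site was counted in both windows. The search covered both strands and counted overlapping matches, and a match or its absence describes these letters in this window only. The annotation of GRCm38 lists Col4a1 and Col4a2, and Slc19a1 and Col18a1, as overlapping on opposite strands. The strand setting of the counting is not given in the sources used here, so reads of these overlaps could not be assigned with certainty.

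After Activin-A alone at 12 hrs, 3 of the 9 tested genes were DEGs, all higher, where 1.25% of all genes tested were higher and 1.16% lower. In 4 genes every Activin-A well was above every untreated well, a pattern found in 3.61% of all genes tested. The log2FC ran from -0.31 to 1.07 with a median of 0.19, against -0.0031 for all genes tested. The sum over the 10 genes was 1986 ± 138 CPM with Activin-A and 1634 ± 42.1 CPM untreated.

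Col5a2 had the highest log2FC of the 9 with Activin-A at 12 hrs. Its wells were at 103, 102, 129 and 111 CPM untreated and at 241, 218, 232 and 238 CPM with Activin-A. Every Activin-A well was far above the highest untreated well, and the log2FC was 1.07 (SE 0.10, adjusted p = 2.64e-16, edgeR), a 2.10-fold change. Its partner chain Col5a1 was at 95.7 ± 2.21 and 105 ± 12.3 CPM (log2FC 0.13, SE 0.11, adjusted p = 0.719, edgeR).

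Col18a1 was at 315, 332, 295 and 313 CPM untreated and at 472, 377, 388 and 486 CPM with Activin-A at 12 hrs. All 4 wells were higher (log2FC 0.45, SE 0.07, adjusted p = 1.72e-06, edgeR). Col4a1 was higher, at 354 ± 12.3 CPM against 296 ± 13.1 CPM (log2FC 0.25, SE 0.07, adjusted p = 0.0183, edgeR). Of 8 fits that each left out 1 well, 4 kept this call and 4 lost it, those without untreated replicates 2 or 3 or Activin-A replicates 3 or 4, with an adjusted p of up to 0.0957. It was 0.0507 with DESeq2. Col4a2, at 261 ± 5.49 and 295 ± 21.3 CPM, did not pass (log2FC 0.17, SE 0.07, adjusted p = 0.292, edgeR), although its groups did not overlap. Col3a1, at 222 ± 20.5 and 260 ± 22.5 CPM, did not pass either (log2FC 0.22, SE 0.08, adjusted p = 0.139, edgeR). Col6a1 and Col6a2 had log2FC of -0.15 and -0.31 (SE 0.09 and 0.14, adjusted p = 0.538 and 0.331, edgeR).

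**Figure D2:**
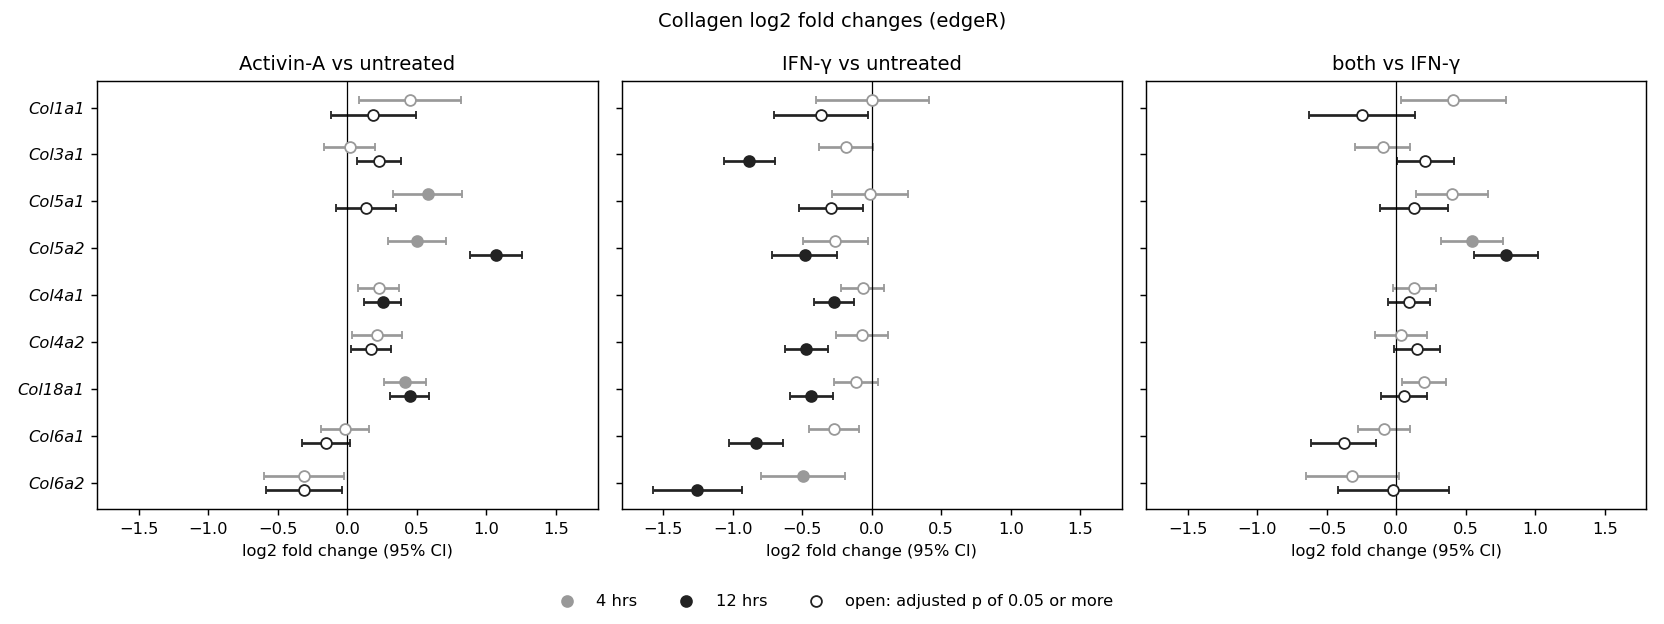
log2 fold changes of the 9 tested collagen genes (x axis) with 95% confidence intervals, at 4 hrs (grey) and 12 hrs (black), for Activin-A against untreated, IFN-γ against untreated and both factors against IFN-γ. Filled points are DEGs (edgeR, adjusted p under 0.05). At 12 hrs all 9 points of IFN-γ lie left of 0, and Col5a2 lies right of 0 with Activin-A and with both factors against IFN-γ.

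When Activin-A was added to IFN-γ for 12 hrs, 1 of the 9 genes was a DEG against IFN-γ alone, Col5a2, which was higher. Of all genes tested 0.457% were higher and 0.568% lower, and 2.34% had every well higher. Col5a2 rose from 71.6, 82.6, 58.3 and 98.1 CPM to 119, 149, 153 and 126 CPM, and every well with both factors was above every well with IFN-γ (log2FC 0.79, SE 0.12, adjusted p = 6.09e-07, edgeR). Col18a1 was at 233 ± 20.9 and 242 ± 15.01 CPM (log2FC 0.06, SE 0.08, adjusted p = 0.898, edgeR), and Col4a1 at 245 ± 13.1 and 262 ± 10.1 CPM (log2FC 0.09, SE 0.08, adjusted p = 0.748, edgeR). Col6a1 was at 80.2, 100.3, 90.7 and 88.6 CPM with both factors against 103, 117, 136 and 111 CPM with IFN-γ. Every well with both factors was thus lower, but Col6a1 did not pass (log2FC -0.38, SE 0.12, adjusted p = 0.110, edgeR). The share of all genes with every well lower was not computed for this comparison.

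The difference between the effect of Activin-A with and without IFN-γ was tested as an interaction and called 0 of the 9 genes at either time, where 0.0111% of all genes were called at 12 hrs and 0% at 4 hrs. At an unadjusted p under 0.05 it held 1 of the 9 at 12 hrs, against 6.82% of all genes tested, and 0 at 4 hrs, against 5.53%. Without replicate 1 of Activin-A it called 0 of the 9 at 4 hrs as well, and DESeq2 called 0 at both. That gene was Col18a1, with a log2FC of -0.39 (SE 0.11, adjusted p = 0.209, edgeR). For Col5a2 the interaction was -0.28 (SE 0.15, 95% CI from -0.58 to 0.022, adjusted p = 0.792, edgeR).

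**Figure D3:**
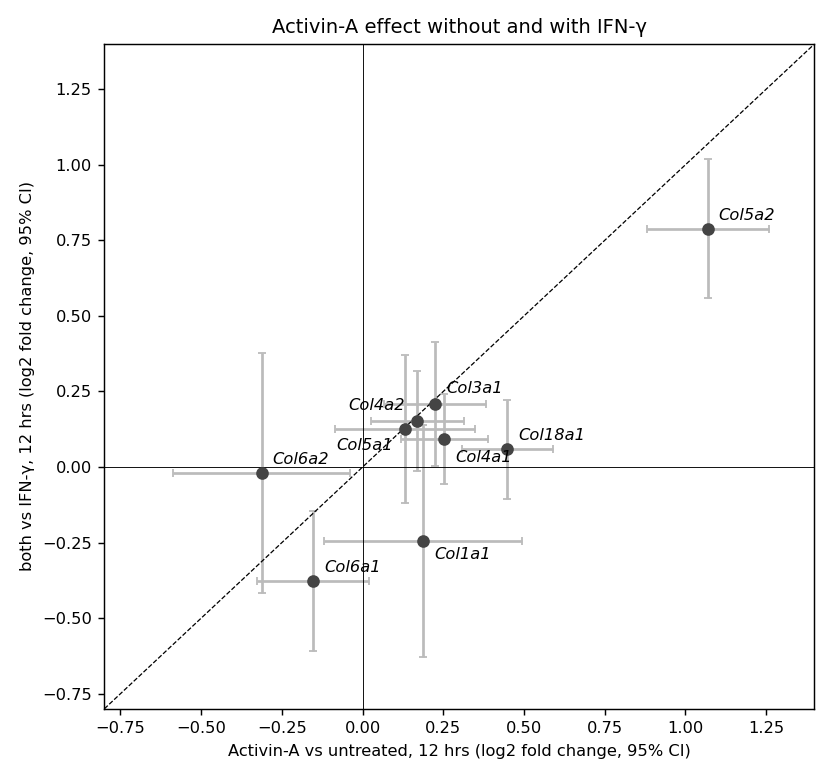
Activin-A against untreated (x axis) and both factors against IFN-γ (y axis) at 12 hrs, as log2 fold changes of the 9 tested genes with 95% confidence intervals, in groups that share no wells. The dashed line marks equal changes. Col5a2 lies at 1.07 and 0.79, and Col18a1 at 0.45 and 0.06.

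Against Activin-A alone, cells given both factors for 12 hrs had 8 of the 9 genes as DEGs, all lower, where 3.44% of all genes tested were lower and 6.18% higher. In 8 genes every well with both factors was below every Activin-A well, a pattern of 5.04% of all genes tested. Col6a1 had the lowest log2FC (-1.06, SE 0.11, adjusted p = 1.56e-14, edgeR), and Col5a2 was at 136 ± 16.8 CPM against 232 ± 10.3 CPM (log2FC -0.76, SE 0.09, adjusted p = 9.61e-11, edgeR). Col5a1 was the 1 gene that did not pass, at 105 ± 12.3 and 85.3 ± 11.5 CPM (log2FC -0.299, SE 0.12, adjusted p = 0.0946, edgeR), except without Activin-A replicate 3 (0.0358).

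Compared to untreated cells, 6 of the 9 genes were lower with both factors for 12 hrs, where 3.7% of all genes tested were lower and 6.14% higher, and 4.92% had every well lower. In 7 of the 9 every well was lower, these 6 and Col4a1, which did not pass (log2FC -0.18, SE 0.07, adjusted p = 0.122, edgeR). The 6 were Col6a2, Col6a1, Col3a1, Col1a1, Col18a1 and Col4a2, with log2FC from -1.27 to -0.32. Col1a1, at 43.3 ± 2.96 and 28.3 ± 3.45 CPM (log2FC -0.61, SE 0.18, adjusted p = 0.0150, edgeR), kept the call in 7 of 8 leave-one-out fits and lost it without replicate 3 of both factors (adjusted p = 0.0847) and with DESeq2 (adjusted p = 0.0654). Col5a2 was at 136 ± 16.8 CPM against 111 ± 12.4 CPM, and did not pass (log2FC 0.31, SE 0.11, adjusted p = 0.0514, edgeR), and it passed in 3 of 7 alternatives, with an adjusted p of 0.0385 with only the 8 wells compared, 0.0407 with no filter and 0.0465 with at least 10 counts in every sample. It also passed without untreated replicate 3 (0.0203) and without replicates 1 (0.0208) or 4 (0.0453) of both factors, and the highest adjusted p of a leave-one-out fit was 0.229.

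At 4 hrs, 3 of the 9 genes were higher with Activin-A alone, where 1.05% of all genes tested were higher and 0.591% lower, and 3.32% had every well higher. Col5a2 rose from 101, 100.1, 137 and 114 CPM to 176, 141, 142 and 167 CPM (log2FC 0.50, SE 0.10, adjusted p = 0.00200, edgeR), Col18a1 was at 401 ± 14.5 CPM against 302 ± 22.1 CPM (log2FC 0.42, SE 0.07, adjusted p = 0.000248, edgeR), and Col5a1 at 114 ± 14.8 CPM against 78.4 ± 5.93 CPM (log2FC 0.58, SE 0.12, adjusted p = 0.00311, edgeR). For all 3 genes the groups did not overlap. The same held for Col4a2, which did not pass (log2FC 0.21, SE 0.09, adjusted p = 0.302, edgeR). Its log2FC was 0.11 to 0.26 over the fits that each left out 1 well. Without replicate 1 of Activin-A, the same 3 genes were DEGs, with log2FC of 0.43, 0.39 and 0.46 (adjusted p = 0.0182, 0.000416 and 0.0420, edgeR).

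With IFN-γ alone at 4 hrs, 1 of the 9 genes was lower, Col6a2, where 0.766% of all genes tested were lower and 4.29% higher, and 3.35% had every well lower. In 2 of the 9, Col5a2 and Col6a1, every well with IFN-γ was below every untreated well. Col5a2 did not pass (log2FC -0.26, SE 0.12, adjusted p = 0.273, edgeR). Col6a2 was at 94.1, 93.3, 80.1 and 97.9 CPM untreated and at 51.4, 82.8, 58.8 and 60.0 CPM with IFN-γ, so that 1 of the 4 wells lay within the untreated range (log2FC -0.496, SE 0.15, adjusted p = 0.0371, edgeR). It was kept in 2 of 8 leave-one-out fits and lost without untreated replicates 1, 2 or 4 or IFN-γ replicates 1, 3 or 4, with an adjusted p of up to 0.169, and also with DESeq2 (0.0992) and with at least 10 counts in every sample (0.0551). Col6a1, with all 4 wells lower at 160 ± 3.73 against 195 ± 17.1 CPM, did not pass, with a log2FC of -0.27 (SE 0.09, adjusted p = 0.0698, edgeR), and passed with only the 8 wells compared (0.0476) and without untreated replicate 1 (0.0396).

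With both factors at 4 hrs, 1 gene was higher than with IFN-γ alone, Col5a2 again, at 136 ± 7.85 against 92.6 ± 7.05 CPM (log2FC 0.55, SE 0.11, adjusted p = 0.00236, edgeR), where 0.558% of all genes tested were higher and 0.252% lower. Against Activin-A alone, 4 genes were lower (Col18a1, Col6a1, Col3a1 and Col6a2, with log2FC of -0.33, -0.34, -0.30 and -0.499 and adjusted p of 0.00131, 0.00793, 0.0421 and 0.0443, edgeR), where 1.66% of all genes tested were lower and 4.41% higher. Without replicate 1 of Activin-A the call was kept for Col18a1 alone (log2FC -0.31, adjusted p = 0.00307, edgeR), and with the replicate block or with DESeq2 for Col18a1 and Col6a1. Over 8 leave-one-out fits the log2FC was -0.40 to -0.28 for Col6a1, -0.36 to -0.26 for Col3a1 and -0.64 to -0.30 for Col6a2. Col6a2 was also lost with at least 10 counts in every sample (adjusted p = 0.062, edgeR) and with only the 8 wells compared (adjusted p = 0.0953, edgeR). Col3a1 also lost its call without Activin-A replicates 2 or 4 or any 1 of the 4 wells with both factors, with an adjusted p of up to 0.12, and Col6a2 without Activin-A replicate 4 or replicates 1, 2 or 4 of both factors, with an adjusted p of up to 0.385. Against untreated cells, Col6a2 (log2FC -0.81, SE 0.15, adjusted p = 8.42e-05, edgeR) and Col6a1 (log2FC -0.36, SE 0.09, adjusted p = 0.00368, edgeR) were lower and Col5a1 higher (log2FC 0.39, SE 0.13, adjusted p = 0.0470, edgeR), where 2.21% of all genes tested were lower and 5.08% higher. The call of Col5a1 was kept in 3 of 8 leave-one-out fits, and was lost without replicates 1, 3 or 4 of the untreated cells and without replicates 1 or 4 of both factors, with an adjusted p of up to 0.368. It was also lost with DESeq2 (0.133) and with at least 10 counts in every sample (0.0554). Col3a1, at 158 ± 2.02 CPM against 194 ± 22.3 CPM, did not pass (log2FC -0.28, SE 0.10, adjusted p = 0.0575, edgeR), and passed with only the 8 wells compared (0.0215), with all 32 samples (0.0351) and without untreated replicate 2 (0.0153).

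The change between the times was tested directly. Between 4 and 12 hrs, untreated cells had 0 DEGs among the 9 genes by edgeR and 0 by DESeq2, and 4.9% of all genes tested were DEGs. At an unadjusted p under 0.05 there were 2 of the 9, against 17.5% of all genes tested. The effect of Activin-A differed between the times in 0 of the 9 by either tool, and 0.0214% of all genes tested were DEGs. At an unadjusted p under 0.05 there were 2 of the 9, against 6.1% of all genes tested, Col5a2 with 0.57 (adjusted p = 0.191, edgeR) and Col5a1 with -0.44 (adjusted p = 0.727, edgeR). Without replicate 1 of Activin-A at 4 hrs these were 0.64 (adjusted p = 0.0669, edgeR) and -0.34 (adjusted p = 0.778, edgeR). The effect of IFN-γ differed in 2 of the 9 genes, where 0.579% of all genes did. Col3a1 was lower by a further -0.69 on the log2 scale at 12 hrs (SE 0.14, adjusted p = 0.00105, edgeR), and Col6a1 by -0.55 (SE 0.14, adjusted p = 0.0241, edgeR), a call kept in 9 of 16 leave-one-out fits. It was lost without untreated replicate 1 or IFN-γ replicate 2 at 4 hrs, and without untreated replicates 2 or 4 or IFN-γ replicates 1, 2 or 4 at 12 hrs, with an adjusted p of up to 0.0915.

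Ratios between the chains of a type do not depend on normalization and were compared with an exact permutation test (two-sided) in 40 comparisons, a family added after values were seen. Of these exact tests, 7 gave p = 0.0286, the lowest value possible with groups of this size, and none was below 0.05 after adjustment over the 40, the lowest being 0.163. The log2 ratio of Col5a1 to Col5a2 was -0.21 ± 0.16 in untreated wells and -1.15 ± 0.20 with Activin-A at 12 hrs, a difference of -0.94 with no overlap (exact permutation p = 0.0286, adjusted p = 0.163). With both factors it was -0.68 ± 0.12, against 0.031 ± 0.31 with IFN-γ (exact permutation p = 0.0286, adjusted p = 0.163). With Activin-A at 4 hrs the ratio was -0.45 ± 0.15, against -0.52 ± 0.22 untreated (exact permutation p = 0.686, adjusted p = 0.784). The log2 ratio of Col4a1 to Col4a2 was 0.18 ± 0.041 untreated and 0.38 ± 0.098 with IFN-γ at 12 hrs (exact permutation p = 0.0286, adjusted p = 0.163), and 0.34 ± 0.12 and 0.36 ± 0.18 at 4 hrs (exact permutation p = 0.857, adjusted p = 0.902). The other comparisons at 0.0286 were Col5a1 to Col5a2 with both factors against Activin-A and against untreated at 12 hrs, Col1a1 to Col1a2 with both factors against untreated at 12 hrs, and Col6a1 to Col6a2 with both factors against untreated at 4 hrs.

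**Figure D4:**
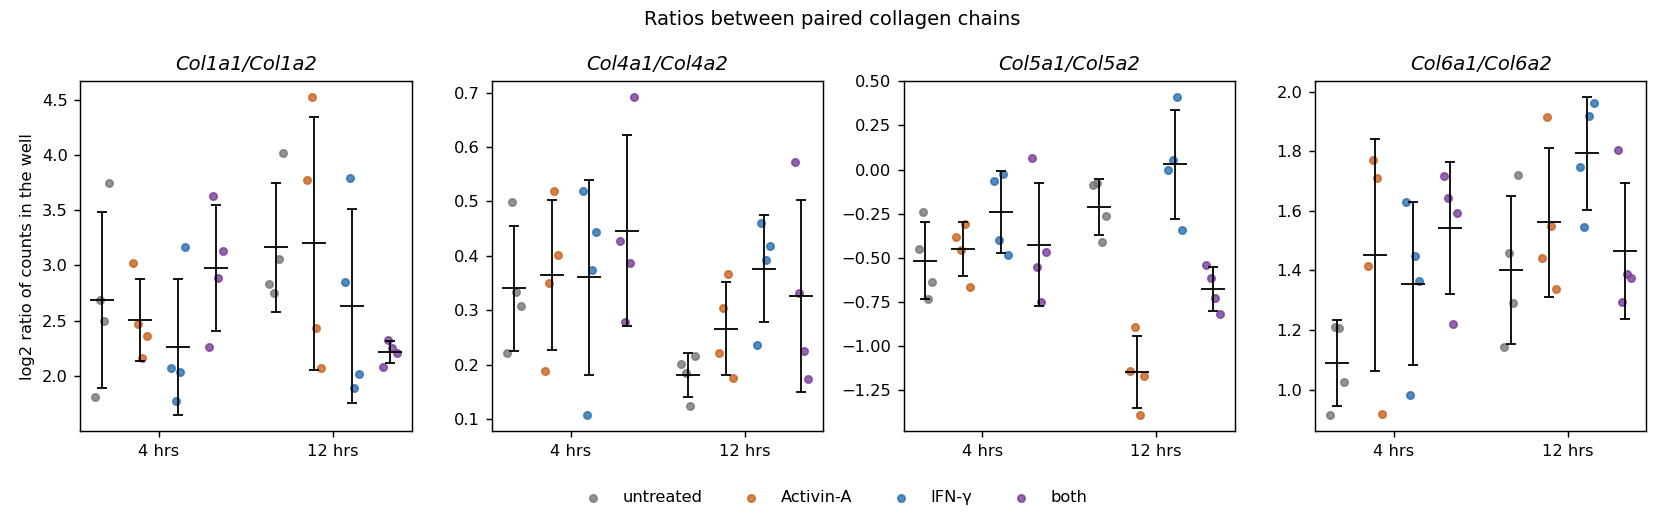
log2 ratio of the counts of 2 chains in each well (y axis, with 0.5 added to each count), at 4 hrs on the left and 12 hrs on the right of each panel. Points are wells, the horizontal bar is the mean and the error bar the SD of 4 wells. The ratio of Col5a1 to Col5a2 with Activin-A at 12 hrs lies between -1.39 and -0.89, below the untreated wells.

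Other genes of the collagen pathway were taken from lists by role. The shares of all genes tested at 12 hrs were 6.43% higher and 2.82% lower with IFN-γ, and 1.25% and 1.16% with Activin-A. Of 34 other collagen chains 15 were in the table and 6 were tested. With IFN-γ at 12 hrs, Col15a1 (log2FC -1.75, adjusted p = 0.00101, edgeR) and Col4a5 (log2FC -0.62, adjusted p = 0.0484, edgeR) were lower, Col8a1 was higher (log2FC 0.45, adjusted p = 2.96e-06, edgeR), and 0 were called with Activin-A. Col15a1 had 2 to 5 counts in the IFN-γ wells, close to the limit of 3 counts. Of 14 tested genes for chain modification and folding, 1 was lower with IFN-γ at 12 hrs, the collagen chaperone Serpinh1 (log2FC -0.17, adjusted p = 0.0319, edgeR), and 0 were called with Activin-A.

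Of 14 tested genes for secretion, propeptide cleavage and cross-linking, 3 were higher and 2 lower with IFN-γ at 12 hrs. Among all genes tested, 6.43% were higher and 2.82% lower. Sparc, a collagen-binding protein, was at 2601 ± 73.9 CPM untreated and 1877 ± 86.2 CPM with IFN-γ (log2FC -0.47, adjusted p = 9.21e-15, edgeR), and Pcolce2, an enhancer of procollagen C-proteinase, fell (log2FC -0.58, adjusted p = 6.67e-05, edgeR). Its relative Pcolce rose (log2FC 0.34, adjusted p = 1.23e-06, edgeR), as did the cross-linking enzyme Loxl1 (log2FC 0.57, adjusted p = 5.13e-06, edgeR). The other higher gene was the proprotein convertase Furin (log2FC 0.39, adjusted p = 0.000804, edgeR). With Activin-A 1 of the 14 was higher, the lysyl oxidase family member Loxl3 (log2FC 0.33, adjusted p = 0.0251, edgeR). Furin and Loxl3 lie outside the naming rule and were chosen after their values were seen. Of 9 tested basement membrane partners, Agrn (log2FC 0.79) and Lama4 (log2FC 0.64) were higher and Lamb1 (log2FC -0.32) and Nid1 (log2FC -0.52) lower with IFN-γ, and 0 were called with Activin-A. Of the receptors, 1 of 4 tested was a DEG with Activin-A, the integrin chain Itgb1 (log2FC 0.44, adjusted p = 1.35e-09, edgeR). Of 5 tested proteases and inhibitors, Timp1, an inhibitor of matrix metalloproteinases, was higher with Activin-A (log2FC 0.28, adjusted p = 4.41e-05, edgeR) and Timp2 lower with IFN-γ (log2FC -0.197, adjusted p = 0.01005, edgeR). Twist1 of the fibroblast markers was higher with IFN-γ at 12 hrs (log2FC 0.54, adjusted p = 2.76e-09, edgeR), lower with Activin-A at 4 hrs (log2FC -0.34, adjusted p = 0.0137, edgeR, and without replicate 1 of Activin-A log2FC -0.37, adjusted p = 0.00465) and lower in untreated cells at 12 than at 4 hrs (log2FC -0.40, adjusted p = 0.000267, edgeR). The other tested fibroblast marker, Pdgfra, did not pass in these comparisons, with log2FC of -0.21, 0.27 and 0.30, each opposite in sign to Twist1 (adjusted p = 0.793, 0.799 and 0.678, edgeR). The fibroblast marker sum, nearly all Twist1, averaged 358 CPM untreated and 285 CPM with Activin-A at 4 hrs (279 CPM without its replicate 1), and 278 CPM untreated and 385 CPM with IFN-γ at 12 hrs. Its part in the collagen results was not tested.

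Of these 20 calls outside the members, 12 were kept in every alternative run that tested the gene, the stricter thresholds aside, and in every leave-one-out fit. None of the 20 changed direction. Col15a1, 1 of the 12, was tested in only 5 of the 7 alternative runs. Col4a5 was kept in 2 of 8 leave-one-out fits and lost without untreated replicates 1, 3 or 4 or IFN-γ replicates 1, 2 or 4 (adjusted p up to 0.24). Loxl3 was kept in 2 of 8 and lost without untreated or Activin-A replicates 2, 3 or 4 (up to 0.161). Serpinh1 was kept in 3 of 8 and lost without untreated replicates 1, 2 or 3 or IFN-γ replicates 1 or 2 (up to 0.252). Lama4 was lost without untreated replicate 1 or IFN-γ replicates 1 or 4 (up to 0.103), and Nid1 without untreated replicates 2 or 4 or IFN-γ replicate 1 (up to 0.112). Lamb1 was lost without IFN-γ replicate 4 (0.0552), Timp2 without untreated replicate 4 (0.058), and Twist1 with Activin-A at 4 hrs without untreated replicate 3 or Activin-A replicate 2 (up to 0.0906). DESeq2 did not call Col4a5, Loxl3, Serpinh1, Lama4 or Nid1, Col4a5 was also lost with no filter (0.0514) and Serpinh1 with all 32 samples (0.0866).

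The 5 genes whose 8 group means were most like the mean of the tested members, with the members themselves left out, were Lsm1 (Pearson's r 0.99), Ttyh3 (0.97), Sparc (0.96), Pla2g7 (0.96) and Tns1 (0.95), among 6980 genes of at least 20 CPM. This is a description over 8 group means, and all groups are wells of 1 cell line.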

How the data were processed

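The authors deposited raw counts per gene, not normalized, for 32 wells of YUMM3.3 cells. The submitters' processing notes name STAR 2.7.10b, featureCounts, DESeq2 1.36.0 and GRCm39 (mm39). Annotation, strand setting and handling of unique molecular identifiers are not given in the sources used here. Symbols were matched for 12437 of 12451 Ensembl identifiers through GENCODE M21, whose build is GRCm38, so no gene positions were taken from it except to list which genes overlap the members. Promoter windows are RefSeq's, in GRCm38.p6.

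Members and lists were chosen with earlier results of these data known. All 10 members are named. Genes of other lists are named where called with a single factor at 12 hrs, at most 4 per list. The chain ratios, the motifs and the alternatives for genes other than the members were added after values were seen, and 1 motif searched is not reported here.

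Genes were filtered with filterByExpr, normalized by TMM and tested with edgeR 4.0.16 (quasi-likelihood test, R 4.3.3) over the 16 wells of a time point, or all 32 for contrasts between times, with Benjamini-Hochberg adjustment and a threshold of 0.05. The SE of a log2FC is not given by edgeR's test and was derived as the absolute log2FC divided by the square root of its F statistic. The 95% intervals were built from this SE, and the floor is 3 counts. The study's methods name DESeq2's Wald test, run here (1.42.0) as an alternative. Further alternatives were RLE normalization, no filter, at least 10 counts in every sample, a replicate block, all 32 samples, only the 8 compared, stricter thresholds (0.01 on the adjusted p, or 0.5 on the log2FC in either direction), and each well left out. Fits were tested on simulated data, with no outcome reported here. Figures used matplotlib.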

Additional observations from a re-analysis of the deposited data

Results flagged for a closer look

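3 of 80 sets of 4 wells held a well far from the other 3, by Dixon's criterion, where chance gives about 4. Col5a1 in untreated cells at 12 hrs had 3 wells between 96.6 and 96.9 CPM, with the lowest at 92.4 CPM. Col5a2 with IFN-γ at 4 hrs had 3 wells between 95.5 and 96.8 CPM, with the lowest at 82.0 CPM. Col6a2 with both factors at 4 hrs had 3 wells between 47.4 and 47.8 CPM, with the highest at 64.8 CPM.

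For 2 genes the effect of IFN-γ differed between 12 and 4 hrs in edgeR's test of the difference. It was -0.69 on the log2 scale for Col3a1 (SE 0.14, adjusted p = 0.00105) and -0.55 for Col6a1 (SE 0.14, adjusted p = 0.0241). For the other 7 tested genes the difference was negative as well and did not pass.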

How the results depend on the processing

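None of the 9 tested members, where called a DEG, changed direction in any alternative or in any fit without 1 well. At an absolute log2FC of at least 0.5, the collagen DEGs fell to 1 for Activin-A and 3 for IFN-γ at 12 hrs, and at 4 hrs to 1 for Activin-A, 0 for IFN-γ, 0 for both factors against Activin-A and 1 for both factors against untreated. At an adjusted p under 0.01 there were 0 for IFN-γ at 4 hrs, 2 for both factors against Activin-A at 4 hrs and 1 for the IFN-γ effect of 12 minus 4 hrs. For IFN-γ at 4 hrs there were 0 with DESeq2, 0 with at least 10 counts in every sample and 2 with only the 8 samples compared. For both factors against Activin-A at 4 hrs there were 2 with DESeq2 and 2 with the replicate block. The cause was not tested. Without each well in turn, these counts were 0 to 1 for IFN-γ at 4 hrs, 1 to 4 for both factors against Activin-A at 4 hrs and 1 to 2 for the IFN-γ effect of 12 minus 4 hrs. At 4 hrs, Col5a2 with both factors against untreated passed without untreated replicate 3 (adjusted p = 0.0221), and Col4a2 with both factors against Activin-A passed without replicate 3 of both factors (0.0387) and with all 32 samples (0.0477).

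The other reversals were of values that were not called. Col1a1 with IFN-γ at 4 hrs was -0.0034 with DESeq2, -0.0025 with RLE, -0.0058 with no filter and -0.0055 with all 32 samples. The interaction of Col6a2 at 4 hrs was 0.025 with DESeq2, 0.0029 with RLE, 0.011 with no filter, 0.0096 with the replicate block and 0.0025 with all 32 samples. With the replicate block, Col5a1 with IFN-γ at 4 hrs was 0.0013 and Col1a1 with both factors against Activin-A at 4 hrs 0.0048. Without the filter, the interaction of Col5a1 at 12 hrs was 0.0053 and the Activin-A effect of Col6a2, 12 minus 4 hrs, -0.0054, and with at least 10 counts in every sample the latter was -0.0036. Leaving out each well in turn, log2 values crossed 0 for interaction of Activin-A and IFN-γ, 12 hrs (Col3a1 -0.10 to 0.077, Col4a2 -0.058 to 0.040, Col5a1 -0.074 to 0.069), both factors against IFN-γ, 12 hrs (Col6a2 -0.14 to 0.12), Activin-A against untreated, 4 hrs (Col3a1 -0.053 to 0.074, Col6a1 -0.086 to 0.041, Col1a1/Col1a2 -0.47 to 0.17, Col4a1/Col4a2 -0.027 to 0.083, Col5a1/Col5a2 -0.0081 to 0.16), IFN-γ against untreated, 4 hrs (Col1a1 -0.15 to 0.12, Col5a1 -0.091 to 0.050, Col4a1/Col4a2 -0.032 to 0.10), both factors against untreated, 4 hrs (Col4a2 -0.091 to 0.047, Col1a1/Col1a2 -0.0026 to 0.64, Col5a1/Col5a2 -0.073 to 0.20). The same held for interaction of Activin-A and IFN-γ, 4 hrs (Col1a1 -0.20 to 0.21, Col5a2 -0.049 to 0.13, Col6a1 -0.12 to 0.0022, Col6a2 -0.14 to 0.20), both factors against Activin-A, 4 hrs (Col1a1 -0.20 to 0.20, Col4a1/Col4a2 -0.00042 to 0.14, Col5a1/Col5a2 -0.14 to 0.14, Col6a1/Col6a2 -0.088 to 0.20), both factors against IFN-γ, 4 hrs (Col3a1 -0.14 to 0.013, Col4a2 -0.020 to 0.13), untreated, 12 against 4 hrs (Col4a1 -0.067 to 0.027, Col5a2 -0.10 to 0.072), Activin-A effect, 12 minus 4 hrs (Col4a1 -0.014 to 0.083, Col4a2 -0.088 to 0.055, Col6a2 -0.17 to 0.20, Col18a1 -0.018 to 0.094). So it did for Activin-A against untreated, 12 hrs (Col1a1/Col1a2 -0.41 to 0.41), both factors against Activin-A, 12 hrs (Col4a1/Col4a2 -0.023 to 0.11, Col6a1/Col6a2 -0.21 to 0.021), both factors against untreated, 12 hrs (Col6a1/Col6a2 -0.050 to 0.17).

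Wells of the same number in different groups showed no clear shared deviation in 48 pairs of wells (mean Pearson's r across genes -0.00023, highest 0.039). Deviations within a group are largely counting error at this depth, which could hide a small shared effect. Pairing by number was thus not seen and is not excluded. Apart from the count above, the replicate block moved no count of collagen DEGs. Depth limits Col1a2, close to the detection limit, and Col15a1.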
